A study of Mus musculus with 15 samples.

Results

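The CpGs described here lie in the 5′ external transcribed spacer of the ribosomal DNA (rDNA), the stretch that is transcribed ahead of the 18S gene. They were chosen by position alone, as the CpGs reported on chromosome 17 from 39843014 to 39846345 of the mouse build mm10, which span 3332 bp. This gave 221 CpGs of the 204492 that each library reports (the listed CpGs). The last of them lies 9 bp before the first base of Rn18s-rs5 at 39846354 to 39848202, an 18S copy that RefSeq annotates as a pseudogene and that is called the 18S gene here. The 18S gene itself holds 102 listed CpGs. The identity of the span as spacer rests on this neighbouring gene, and it was not checked against a rDNA sequence.

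In mammals the rDNA unit is repeated in tandem many times, and RNA polymerase I transcribes each active copy into a long precursor. The precursor begins with the 5′ external transcribed spacer, which is cut away during processing, and goes on to the ribosomal RNAs. Some copies of the unit are silent and others active, and CpG methylation of the promoter marks silent copies in somatic cells of the mouse. Sperm carry these repeats in a compact nucleus with little transcription.

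The libraries were made from sperm of male C57BL/6 mice of generation G1, 8 labelled as protein restricted (PR) and 7 labelled Control. The labels do not say whether the sampled males or a parent ate the diet, and they give no age, litter or batch. Replicate numbers follow the accessions within each diet and link no libraries. The assay was reduced representation bisulfite sequencing, in which MspI cuts at CCGG and cytosines that stay unconverted by bisulfite are counted as methylated. Methylation of a CpG in a library is the number of methylated reads as a percentage of all reads there, so a value near 30% means that about that share of the sequenced molecules was methylated. Fewer methylated repeats per sperm and fewer sperm with methylated repeats cannot be told apart in such bulk values.

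Counts summed over all listed CpGs were 6650912 to 10712016 in PR libraries and 7846118 to 11841657 in Control libraries. The spacer CpGs averaged 1276 to 1850 reads in PR libraries and 1132 to 2190 reads in Control libraries, against a median of 32 reads for all listed CpGs. No library has fewer than 11 methylated reads at any listed CpG, so no spacer CpG with fewer is described here. The 7 listed CpGs upstream of Meg3 and Rasgrf1, imprinted genes whose control regions are methylated in sperm, averaged 94.3 ± 1.42% in PR libraries. They averaged 95.5 ± 1.09% in Control libraries (SD, n = 8 and 7). Listed CpGs outside the rDNA averaged 95.4% in PR and 95.4% in Control libraries. As the list favours methylated CpGs and these 7 stood near its average, their values cannot check the tissue. None of the 105 pairs of libraries held identical counts. Control replicate 3 stands apart in much of what follows, and results that rest on it are given with and without it.

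The listed CpGs of the spacer were partly methylated from its upstream to its downstream end, in contrast to most of the list. CpG means over the 15 libraries ran from 4.88% to 51.7% with a median of 28.9%, while the median listed CpG stood at 98.2%. Listed CpGs had a median of 32 reads and no fewer than 11 methylated reads in any library. A weakly methylated CpG of that depth is therefore not on the list, and 98.2% is no measure of the genome. In 500 bp bins the level was lowest at the upstream end, where 36 CpGs averaged 25.1 ± 5.08% in PR and 22.2 ± 8.31% in Control libraries. It was highest in the fourth bin, 39844501 to 39845000, whose 22 CpGs averaged 43.1 ± 8.46% in PR and 36 ± 15.5% in Control libraries. These 22 CpGs all lie at or before 39844651, as no CpG is listed in the 433 bp from there to 39845084. Further gaps without listed CpGs, of 118, 314 and 127 bp, lie downstream. The level within the gaps was not measured. In the last bin before the 18S gene the 29 CpGs averaged 28.3 ± 6.07% in PR and 28.1 ± 13.5% in Control libraries. In both diets the level of the listed CpGs thus climbed along the first 4 of the 7 bins and was lower in the last 3.

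Single CpGs departed from this outline over short distances. The most methylated CpG, 39843971, lay 2383 bp before the 18S gene and reached 55.6 ± 12.1% in PR and 47.4 ± 13.8% in Control libraries. Its PR libraries had a lowest value of 32.2%, a median of 61.0% and a highest of 67.6%, and its Control libraries a lowest of 33.6%, a median of 49.2% and a highest of 70.8%. The groups overlapped over most of their range, the highest library being a Control and the lowest a PR library. The next highest means were 49.9% at 39843958 and 46.9% at 39844620.

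The least methylated CpG was 39845236, at 4.82 ± 1.73% in PR and 4.95 ± 1.08% in Control libraries. It ranged from 2.18% to 7.05% in PR libraries, with a median of 4.93%, and from 3.77% to 6.69% in Control libraries, with a median of 4.87%. Its neighbour 39845232, only 4 bp away and read to a like depth (854 against 769 reads), averaged 31%. A CpG that is nearly unmethylated in every library therefore adjoins one near the level of the spacer as a whole. The other lowest means, 11.6% at 39843269 and 11.7% at 39843253, belong to CpGs 3085 and 3101 bp before the 18S gene. Across the 221 CpGs the level of a CpG had a rank correlation of 0.0875 with the number of listed CpGs within 50 bp and of 0.105 with its mean reads, as descriptions over CpGs that share libraries and fragments.

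**Figure D1:**
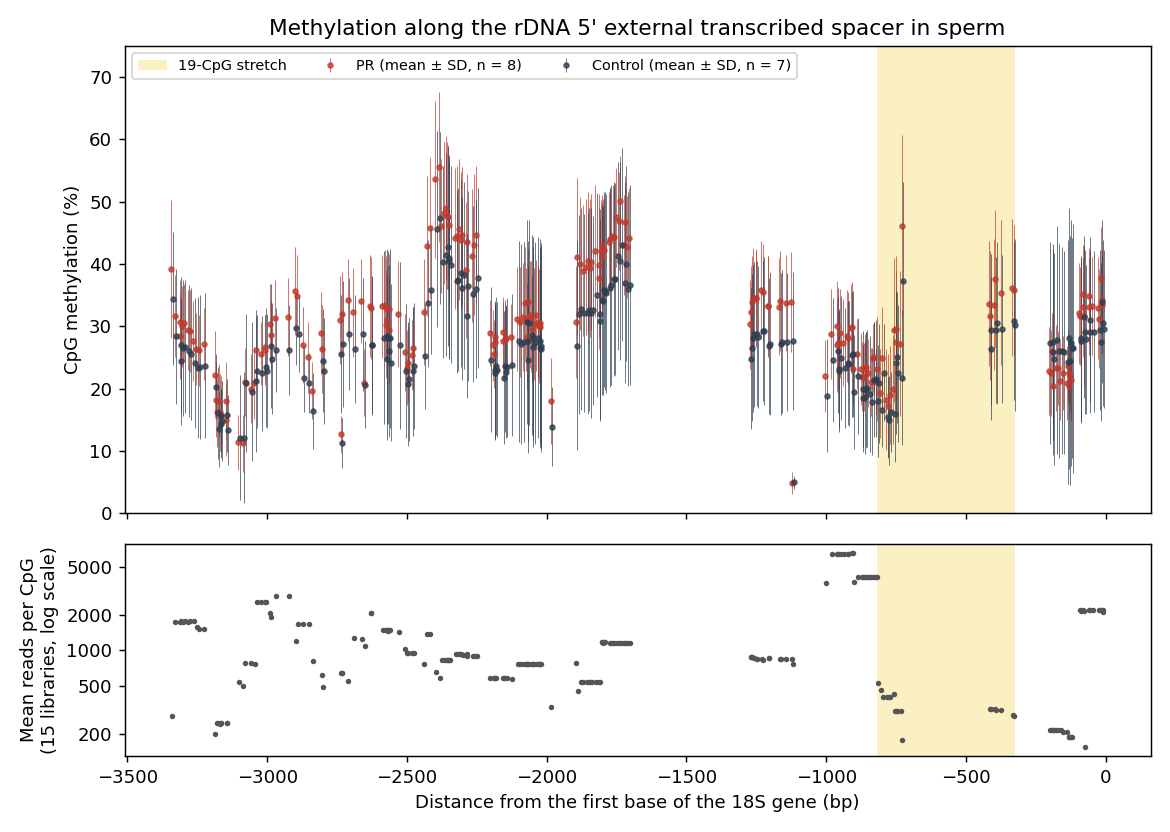
Upper panel, CpG methylation (%) as mean ± SD for each of the 221 CpGs against distance from the first base of the 18S gene (bp), for 8 PR and 7 Control libraries. Lower panel, mean reads per CpG over the 15 libraries on a log scale. The shaded span is a stretch of 19 CpGs whose libraries order differently. Single CpG means over all libraries reach 51.7%, a CpG stays at 4.88%, and reads step from 155.4 to 6539 per CpG.

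Averaged over all 221 CpGs, PR libraries stood at 31.2 ± 6.64% and Control libraries at 27.0 ± 10.7% (SD, n = 8 and 7). PR libraries had a lowest value of 20.8%, a median of 33.0% and a highest of 38.2%. Control libraries had a lowest value of 16.9%, a median of 25.2% and a highest of 48.1%. The groups overlap, with the highest library (Control replicate 3) and the lowest library (Control replicate 4) both in the Control group. Without Control replicate 3 the other Control libraries averaged 23.5 ± 5.90% with a highest value of 32.7%, and the difference was 7.65 percentage points in place of 4.13. Leaving out Control replicate 4 gave 2.44 points and leaving out Control replicate 5 gave 2.63 points, so the size of the difference depends on single Control libraries in both directions.

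No CpG of the spacer passed the test between diets. Methylated and unmethylated counts were fitted per CpG with a quasi-binomial model, and p-values were adjusted by the Benjamini-Hochberg method over all 204492 CpGs. At an adjusted p of 0.05, 0 of 221 spacer CpGs were called, with a background of 0% over all listed CpGs, and the smallest adjusted p in the spacer was 1. At an unadjusted p of 0.05, 4 spacer CpGs (1.81%) passed, under the background of 3.79%. By limma, on percentages or on log2 odds, 0 passed the adjusted and 0 the unadjusted threshold, the unadjusted background being 4.56% on either scale. Leaving out Control replicate 3 brought 119 of the 221 (53.8%) under an unadjusted p of 0.05, against a background of 3.75%. It brought 0 under the adjusted threshold, where the smallest value was 0.9996. The next highest unadjusted count, 21, came without PR replicate 6. Leaving out PR replicate 3, 5 or 8 or Control replicate 1, 4 or 5 brought 0 under the unadjusted threshold. As spacer CpGs vary together, such counts describe the libraries and not separate CpGs.

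The 4 CpGs under the unadjusted threshold lay close together, at 39844171, 39844199, 39844202 and 39844206. At 39844202, which had the smallest p (0.0355, quasi-binomial fit, adjusted p 1), PR libraries averaged 29.1 ± 5.52% and Control libraries 23.7 ± 10.6%. The PR libraries ran from 21.2% to 36.3% with a median of 29.7%, and the Control libraries from 15.3% to 45% with a median of 18.8%. Most Control libraries lay below the PR range, while the highest Control library lay above it.

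The same test on counts summed over 1000 bp windows covered the spacer in 4 windows. Their PR minus Control differences were 4.46 points in the window from 39843001, 6.18 from 39844001, 4.10 from 39845001 and 4.22 from 39846001, the last of which also holds 18S CpGs. Unadjusted p was 0.202 to 0.229 by the quasi-binomial fit, and adjusted p over 28743 windows was 0.999 for each, with a background of 0% called after adjustment and 3.33% before it. By limma none of the 4 windows passed either threshold, where the unadjusted background was 4.75% on percentages and 5.08% on log2 odds, and none of the 500 bp windows did, with backgrounds of 4.83% and 5.07%. Without Control replicate 3 all 4 windows had an unadjusted p under 0.05, against a background of 3.23%, and none passed after adjustment. With any other single library left out, none of the 4 windows had an unadjusted p under 0.05.

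The sign of the difference was alike at most positions. The PR mean was above the Control mean at 203 of the 221 CpGs, where the background over all listed CpGs is 49.8%. As CpGs of the spacer share reads, fragments and libraries, this count describes 15 libraries and not 221 separate observations. Differences ran from -5.18 to 9.96 points with a median of 4.12, against a median of 0 over all listed CpGs. At 87 CpGs (39.4%) PR was higher by at least 5 points, against a background of 1.2% in a list whose CpGs are mostly near full methylation. There was no CpG at which the PR and Control libraries failed to overlap, and the background for that is 0.0191%.

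The largest difference was at 39843938, where PR libraries averaged 45.8 ± 11.4% and Control libraries 35.8 ± 10.2%. The PR libraries ran from 28% to 58.4% with a median of 49.3%, and the Control libraries from 25.2% to 52.8% with a median of 34.1%. The PR median was the higher, the ranges overlapped over most of their length, and the adjusted p was 1 in the quasi-binomial fit. The next largest differences were 9.22 points at 39844466 and 9.18 points at 39843927.

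The CpGs with a lower PR mean were 18 in number, against a background of 49.7%, and 14 of them were consecutive, from 39846154 to 39846234. Over these 14 CpGs PR libraries averaged 22.4 ± 5.86%, with values of 13.3% to 30.5%, and Control libraries 26.3 ± 17.9%. A single library sets the Control value, since Control replicate 3 stood at 66.0% on a mean of 35.2 reads per CpG and the other Control libraries at 14.8% to 25.5%. Without it the difference over the 14 CpGs was 2.66 points in place of -3.95. The most negative difference of the spacer, -5.18 points at 39846234, is among them. Over the whole spacer 220 CpGs had the higher mean in PR without Control replicate 3, against a background of 50%, and the exception was the nearly unmethylated 39845236.

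**Figure D2:**
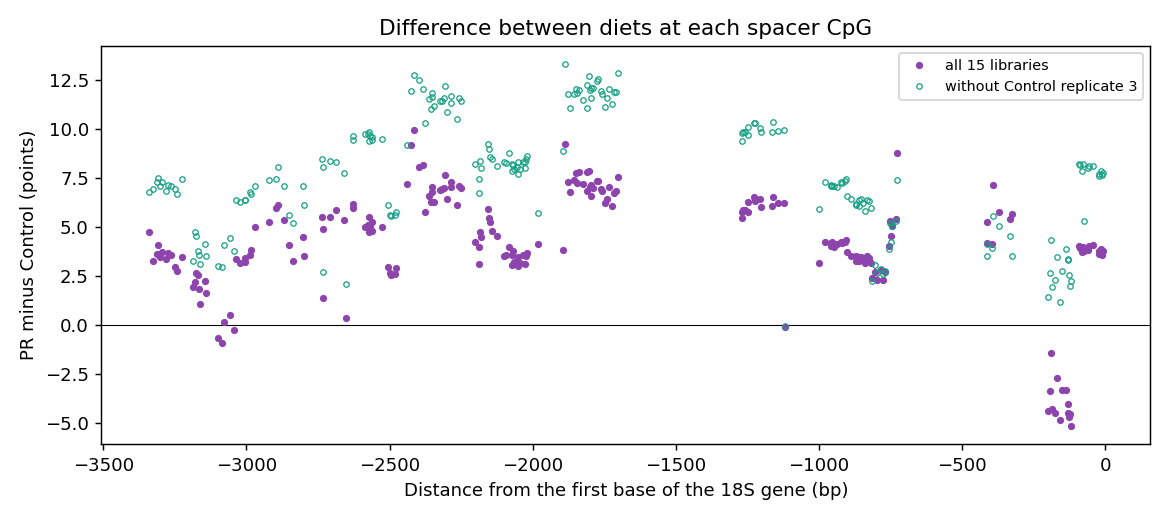
Difference in methylation, PR minus Control (percentage points), for each CpG against distance from the first base of the 18S gene (bp), with all 15 libraries and without Control replicate 3. With all libraries 203 of 221 points lie above 0, and the consecutive run below 0 next to the 18S gene moves above 0 once Control replicate 3 is left out.

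The spread between libraries was wide for the depth. The SD of a spacer CpG over the 15 libraries had a median of 10.2 points (1.42 to 15.4), where binomial counting at the observed reads alone gives a median of 1.61 points (0.534 to 4.04). The dispersion of the quasi-binomial fit, which is 1 when libraries of a diet differ by counting error only, had a median of 55.5 in the spacer and of 0.955 over all listed CpGs. The 494 other listed CpGs with means of 10% to 90% and at least 100 reads had a median SD of 4.58 points. Their median dispersion was 1.72, at a median of 167 reads. The CpGs of the adjoining 18S gene had a median SD of 8.21 points, nearer to that of the spacer. Library means had an SD of 8.72 points over the spacer, 6.16 over the 18S gene and 7.99 over the listed CpGs after it. These are descriptive, and the depths differ. CpGs with higher means had higher SDs, with a rank correlation of 0.706 across the 221 CpGs. The mean of a library over the listed CpGs outside the rDNA block hardly differed, at 95.4 ± 0.0872% in PR and 95.4 ± 0.129% in Control libraries. That mean takes in nearly the whole list, whose CpGs are mostly near full methylation. Its SD therefore cannot be set directly against those of the spacer.

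The libraries kept much of their order from CpG to CpG. Control replicate 3 was the highest library at 180 of the 221 CpGs, PR replicate 2 at 30 and PR replicate 5 at 9. The lowest library was Control replicate 5 at 98 CpGs and Control replicate 4 at 70. The Control group thus supplied both ends of the range at most positions, and its SD of 10.7 points fell to 5.90 without replicate 3, against 6.64 in PR.

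The numbers in the sample titles form consecutive runs within a diet. In PR, titles 30 and 31 averaged 35.3%, titles 35 and 36 averaged 21.5%, title 39 stood at 29.7% and titles 42 to 44 averaged 35.3%. In Control, title 1 stood at 16.9%, titles 6 to 8 averaged 25.3% and titles 22 to 24 averaged 32.1%. Libraries of a run were close in the first PR runs (35.5% and 35.2% in titles 30 and 31, 20.8% and 22.2% in titles 35 and 36). In the PR run of titles 42 to 44 they were less close, at 30.7%, 36.9% and 38.2%. Control libraries were farther apart, at 32.7%, 18% and 25.2% in titles 6 to 8 and 26.5%, 48.1% and 21.7% in titles 22 to 24. Each run of titles holds a single diet, and the labels do not say what the numbers stand for, so any effect of the runs and the diet cannot be told apart. With the runs averaged first, the difference was 5.69 points.

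**Figure D3:**
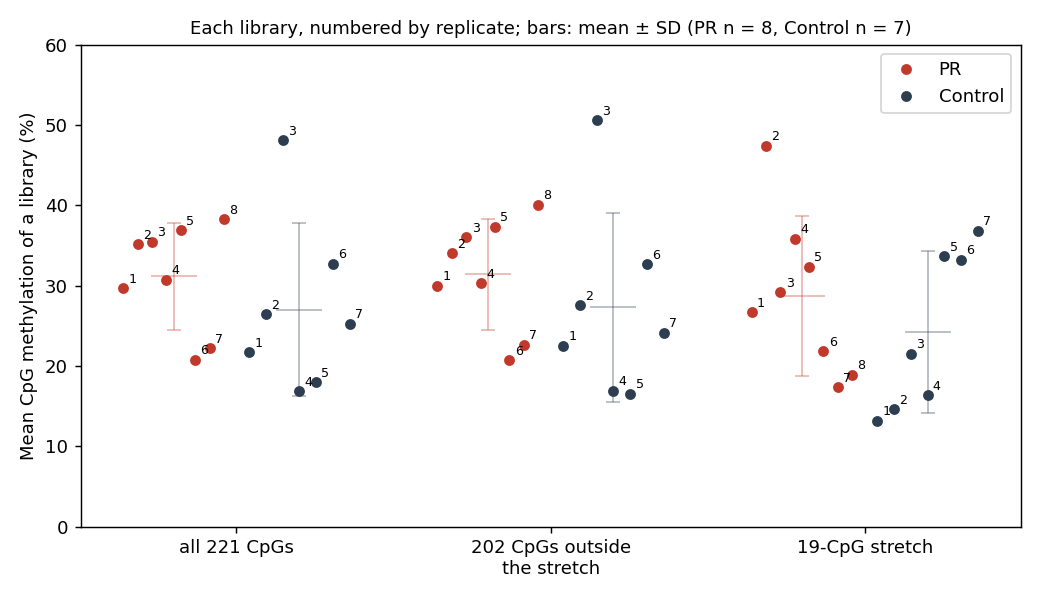
Mean CpG methylation (%) of each library, numbered by replicate, over all 221 spacer CpGs, over the 202 CpGs outside the 19-CpG stretch and over the stretch. Bars give mean ± SD (PR n = 8, Control n = 7). Control replicate 3 is the highest library at 48.1% over all CpGs but stands at 21.5% in the stretch, where PR replicate 2 is highest at 47.4%.

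Methylation of the spacer varied largely as a unit. The region was split at the middle of its coordinates into an upstream part of 137 CpGs and a downstream part of 84. Over the 15 libraries the parts correlated with Pearson's r = 0.974 and Spearman's rho = 0.964, with p = 2e-05 for each in a two-sided permutation test of 100000 resamples, the smallest it can give, and 6e-05 after adjustment over 3 relations. Within PR libraries r was 0.959 (exact permutation p = 0.00337) and rho 0.833 (p = 0.0154). Within Control libraries r was 0.981 (exact permutation p = 0.00198) and rho 0.964 (p = 0.00278). The libraries most distant from the median were Control replicates 3 and 4, and leaving them out gave r = 0.954 and rho = 0.945.

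Single CpGs followed each other in the same way. Over all 24310 pairs of CpGs the median r across libraries was 0.882, and for pairs within 50 bp of each other, which can share reads, it was 0.993. Pairs over 1000 bp apart had a median of 0.798. The correlation of a CpG with the mean of all others had a median of 0.951. It was lowest at 39846027 (0.0484), 39845961 (0.125) and 39845626 (0.127), which lie close together.

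These 3 CpGs belong to a stretch of 19 consecutive CpGs, from 39845539 to 39846027, or 815 to 327 bp before the 18S gene, that varied apart from the rest of the spacer. The stretch was found by clustering these same correlations, so what follows describes it and carries no test. It holds the 19 CpGs that fell in the second largest of 3 groups by both Spearman's rho and Pearson's r. Spearman's rho placed just these there, and Pearson's r placed 30. The smallest group by Spearman's rho held 2 CpGs. Among them is the nearly unmethylated 39845236, which Pearson's r also set apart and which is counted outside the stretch. The 11 that Pearson's r added lie upstream, between 39843014 and 39844371, with a median of 246 mean reads. Their mean correlated across libraries with r = 0.701 with the stretch and r = 0.712 with the remaining 191 CpGs, so they stand between the patterns, and they are counted outside the stretch here. Those 191 CpGs correlated with the stretch with r = 0.134. Within the stretch the median r over 171 pairs was 0.953, with a lowest of 0.855. Among the other 202 CpGs the median over 20301 pairs was 0.908. Between the stretch and the others the median over 3838 pairs was 0.136, and 19% of these pairs were below 0. A gap of 314 bp without listed CpGs divides the stretch into 12 and 7 CpGs, and the means of these pieces correlated with r = 0.970 across libraries.

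The order of the libraries in the stretch differed from the order elsewhere. PR replicates 1 to 8 stood at 26.7%, 47.4%, 29.1%, 35.9%, 32.4%, 21.9%, 17.4% and 18.9% in the stretch. Control replicates 1 to 7 stood at 13.2%, 14.6%, 21.5%, 16.3%, 33.6%, 33.2% and 36.8%. PR replicate 2 was the highest library at all 19 CpGs, and Control replicate 3 was the highest at none of them. PR replicate 8 ranked 2 of 15 outside the stretch and 11 within it, and Control replicate 5 ranked 15 outside and 4 within it. Across the libraries the mean of the other CpGs and the mean of the stretch correlated with r = 0.155 and rho = 0.196, or r = 0.314 without Control replicate 3.

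**Figure D4:**
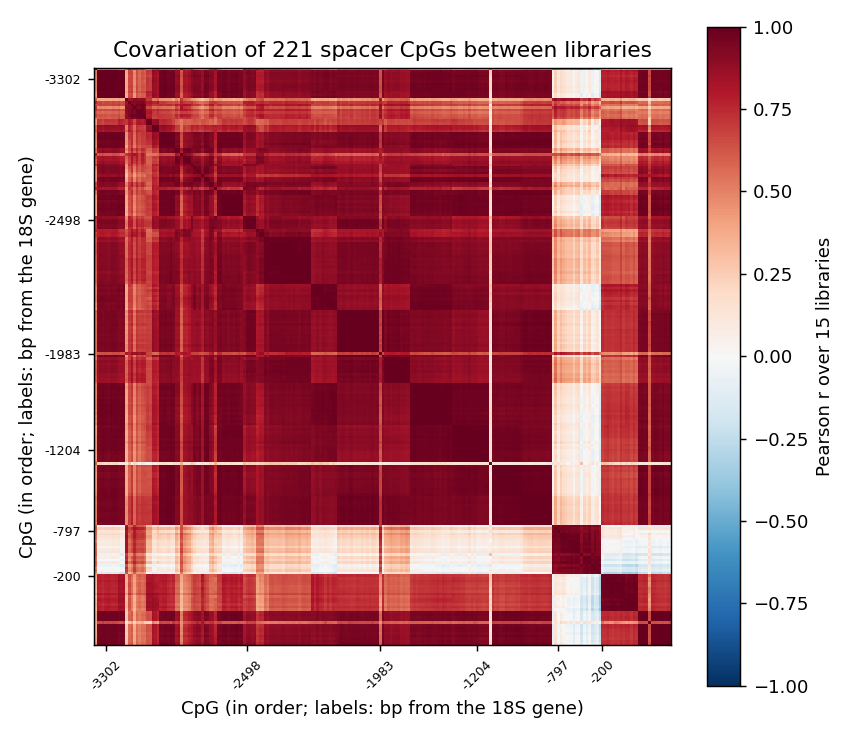
Pearson's r over the 15 libraries for every pair of the 221 CpGs, in order of position from the upstream end to the 18S gene. The 19-CpG stretch appears as a block with high values inside (median 0.953) and low values against the other CpGs (median 0.136), which correlate among themselves on both sides of it (median 0.908).

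Both sets of CpGs had the higher mean in PR, with overlapping groups. In the stretch PR libraries averaged 28.7 ± 9.93% (lowest 17.4%, median 27.9%, highest 47.4%) and Control libraries 24.2 ± 10.1% (lowest 13.2%, median 21.5%, highest 36.8%). At the other 202 CpGs PR libraries averaged 31.4 ± 6.91% and Control libraries 27.3 ± 11.8%. The difference in the stretch, 4.51 points, lay between 1.84 without PR replicate 2 and 6.62 without Control replicate 7. It was also low without Control replicate 1 (2.68) or Control replicate 2 (2.91). It was also high without PR replicate 7 (6.13), Control replicate 5 (6.09) or Control replicate 6 (6.02). The difference of 4.10 points at the other CpGs was 7.98 without Control replicate 3, and leaving out Control replicate 4 gave 2.37 and leaving out Control replicate 5 gave 2.30. The largest shifts thus came from different libraries. Leaving out Control replicate 5 raised the difference in the stretch and lowered that at the other CpGs.

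The upstream edge of the stretch was sharp. The CpGs 39845536 and 39845539 are 3 bp apart, yet correlated with r = 0.130 across libraries, and mean reads were 4175 at 39845536 and 529 at 39845539. PR replicate 2 stood at 24.6% before the edge and at 38.6% after it. Control replicate 3 stood at 35.1% before the edge and at 20.2% after it.

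Depth differed between the stretch and the other CpGs, with overlap. The run of 14 CpGs from 39846154 to 39846234 had a mean of 203 reads and lies outside the stretch. CpGs of the stretch had a median of 321 mean reads (177 to 529), against 903 at the other spacer CpGs (155 to 6539). Its reads as a percentage of those at the other CpGs averaged 24.5 ± 4.95% in PR libraries (lowest 15.2%, median 24.3%, highest 31.9%) and 20.6 ± 10.9% in Control libraries (lowest 6.90% in replicate 3, median 16.9%, highest 35.9% in replicate 4). Fewer than 20 methylated reads were counted in at least 1 library at 37 spacer CpGs, of which 13 are in the stretch. Among neighbouring CpGs within 50 bp, the 191 pairs with reads within 1.5 times of each other had a median r of 0.995 and 1 pair under 0.7. The 23 pairs that differed more in reads had a median r of 0.863 and 6 pairs under 0.7. Whether depth or the listing of CpGs plays a part in the separate order of the stretch was not tested.

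The same pair of patterns was present beyond the spacer. Of 151 listed CpGs in the 18S gene and up to 39848698 after it, 92 had r over 0.7 only with the mean of the other spacer CpGs and 21 only with the mean of the stretch, 20 of these 21 in the 18S gene. None had such values with both, and 38 had them with neither. Some of the 38 stood between the patterns, as did 39847444, with r = 0.649 and r = 0.682, so the cutoff divides graded values. The 21 CpGs had a median of 322 reads (121 to 1039) and the 92 a median of 1117 reads (409 to 4098), so their depths overlapped.

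**Figure D5:**
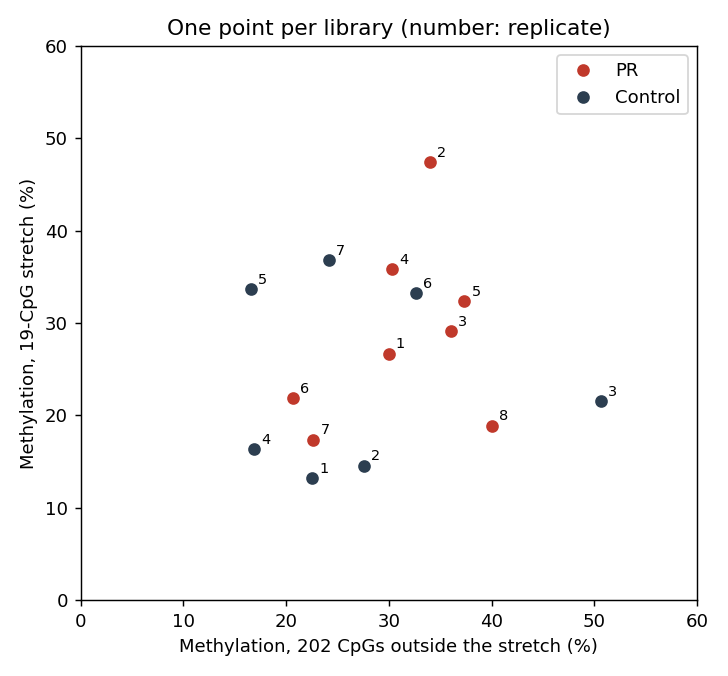
Mean methylation (%) of the 19-CpG stretch against that of the other 202 spacer CpGs, a point for each library, numbered by replicate. The points show little relation (r = 0.155), with Control replicate 3 far to the right at 50.6% and PR replicate 2 at the top at 47.4%.

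The spacer was less methylated than the 18S gene in every library. The 18S CpGs averaged 44.5 ± 4.44% in PR and 41.3 ± 7.70% in Control libraries. The spacer stood 13.8 ± 3.74 points below the 18S gene (SD, n = 15), lower in 15 of 15 libraries, with p = 6.1e-05 in an exact two-sided sign-flip permutation test, the smallest it can give. The gap was -13.3 ± 3.41 points in PR and -14.3 ± 4.30 points in Control libraries. Against the 49 listed CpGs after the 18S gene the spacer stood 1.95 ± 3.55 points higher, above them in 9 of 15 libraries, with an exact sign-flip permutation p of 0.0512. The difference between spacer and 18S gene was thus several times its spread between libraries, and the difference from the CpGs after the gene was within its spread.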

How the data were processed

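Methylated and total read counts per CpG were deposited by the authors for 15 libraries, unnormalized. The submitters' processing notes name Bismark 0.7.12, Bowtie2 2.1.0 and the build mm10, while trimming, filtering, strand merging and the rule for listing a CpG were not given in the sources used here.

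Percentages were averaged over CpGs with equal weight. Each CpG, and each 1000 bp window with at least 3 CpGs, was fitted by quasi-binomial logistic regression on diet (F test, 13 residual degrees of freedom, dispersion at least 1), which weights libraries by their reads, with Benjamini-Hochberg adjustment over all CpGs or windows at 0.05. The scripts were in Python 3.11.15 with scipy 1.17.1. The quasi-binomial test was also run on simulated counts, in which CpGs varied independently, unlike those of the spacer. Alternatives used limma 3.58.1 in R 4.3.3 on percentages or on log2 odds with 1 read added to each class of the deposited counts. A minimum of 10 reads removed no CpG. Clopper-Pearson intervals at 95% cover counting error only, as reads carried no molecular identifiers. The labels do not say that libraries come from separate mice. The p-values therefore take the library as the unit, and the spread between libraries that they are judged against may be technical.

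CpGs were named by rule: the first and last, and the 3 most extreme in mean, SD, difference, p and correlation with the others. The region, lists and tests were chosen with earlier results of these data known. The 19-CpG stretch, the run of 14 CpGs and the neighbours of named CpGs were chosen after their values were seen. The stretch is the overlap of the second largest groups from average-linkage clusterings into 3 groups. These used 1 minus Pearson's r and 1 minus Spearman's rho. The gene position comes from RefSeq, GRCm38.p6. No sequence is printed.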

Additional observations from a re-analysis of the deposited data

Results flagged for a closer look

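A library was singled out where its gap to the nearest library of its diet, divided by the range of that diet, passed Dixon's 95% limit. This was applied to 74 groups of values, of which chance alone gives about 1 in 20, and 10 passed. The groups are not independent, since neighbouring CpGs share reads.

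Depth set apart PR replicate 3, with 1850 reads per spacer CpG against 1276 to 1434 in the other PR libraries, and Control replicate 4, with 2190 against 1132 to 1492 in the other Control libraries. The other 8 all concern Control replicate 3. In the first 500 bp bin it stood at 39.6%, where the remaining Control libraries had 15.5% to 24.6%. In the bin next to the 18S gene it stood at 57.1%, against 18.5% to 30.6%.

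At the weakly methylated CpG 39843253 it had 34.2% (25 of 73 reads, exact Clopper-Pearson 95% interval 23.5% to 46.3%), while the remaining Control libraries had 6.06% to 13.1%. At 39843269 it had 35.3% (24 of 68 reads, 24.1% to 47.8%), against 5.39% to 13.1%.

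Near the 18S gene its value was 62.2% at 39846194 (23 of 37 reads, 44.8% to 77.5%), while the remaining Control libraries had 13.3% to 26.7%. At 39846222 it was 75% (24 of 32 reads, 56.6% to 88.5%), against 14.3% to 25%. At 39846226 it was 71.0% (22 of 31 reads, 52.0% to 85.8%), against 14.0% to 26.7%, and at 39846234 it was 71.0% on equal reads, against 15% to 26%. All these CpG intervals lie above the range of the other Control libraries.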

How the results depend on the processing

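Leaving out each library in turn moved the PR minus Control difference of the spacer between 2.44 points, with Control replicate 4 left out (2.63 with Control replicate 5 left out), and 7.65 points, with Control replicate 3 left out. Pooling reads over CpGs gave 4.63 points, CpGs with at least 500 reads in every library 5.14, and log2 odds turned back into percent 4.71. The PR SD lay between 5.56 and 7.17 points and the Control SD between 5.90 and 11.8 points when a library was left out. The difference in the bin next to the 18S gene was 0.196 points with CpGs weighted equally. It lay between -1.41 and 5.03 when a library was left out and so has no stable sign. With reads pooled over CpGs it was 3.38 points. CpGs with a higher PR mean numbered 199 to 220. The adjusted tests called 0 spacer CpGs and 0 windows in every version run, while CpGs at an unadjusted p of 0.05 numbered 0 to 119. The spacer minus 18S difference lay between -14.3 and -13.3 points, and was -12.6 with pooled reads. No paired analysis was possible because replicates were numbered in accession order and title numbers are not shared between diets. Merging positions 1 base apart could not be run, as none are. The list, in which no library has fewer than 11 methylated reads at a CpG, limits what shallow CpGs can show.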
